A study of Mus musculus with 9 samples.

Results

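Genes that separate tight from leaky brain vessels were followed, 10 of the 24444 gene symbols in the count table. They were chosen by symbol: Plvap, which marks fenestrated (leaky) capillaries, and 9 genes of barrier vessels, Cldn5, Ocln, Tjp1, Slco1c1, Mfsd2a, Abcb1a, Abcg2, Itm2a and Plpp1. All 10 had enough counts to be tested. RNA was sequenced in bulk from 9 mouse samples in 3 groups of 3 biological replicates. The controls were normal cerebellum of CD1-nude mice, an athymic strain. Both tumour groups grew in CD1-nude hosts from orthotopically implanted cells of a WNT-medulloblastoma model, whose genotype is given as Blbp-Cre with Ctnnb1Ex3flx/flx, Trp53flx/flx and Pik3caE545K +/flx. The Cre is driven by the Blbp (Fabp7) promoter of neural progenitors, and loss of exon 3 stabilises beta-catenin, the effector of WNT signalling. The implanted cells carried either EV, taken here to mean an empty vector, or MycT58A, in which the T58A change slows breakdown of the Myc protein. The controls carried none of these alleles, vectors or implants, so these cannot be told apart as sources of a difference from control, and the tumour samples were GFP-positive tissue taken by microdissection. Vessels of the host and the implanted tumour cells are both mouse, so a read does not say which of them it came from. The labels of the controls give cerebellum as the source, while the growth protocol speaks of cortex. The control libraries held 522 to 888 CPM (depth-scaled counts) of Gabra6 and 1033 to 1646 CPM of Cbln3, both genes of granule neurons in the cerebellum.

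The blood-brain barrier is made by the endothelial cells of brain capillaries. Claudin-5 and occludin seal the clefts between these cells, ZO-1 anchors them to actin, carriers such as Slco1c1 and Mfsd2a move selected molecules across, and the pumps Abcb1a and Abcg2 return drugs to the blood. WNT signalling in the endothelium induces and keeps this state. WNT-subgroup medulloblastoma is known for fenestrated, haemorrhagic vessels, which earlier work linked to WNT antagonists secreted by the tumour cells. PLVAP forms the diaphragms of fenestrae and caveolae and is low in mature barrier capillaries.

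The sequences upstream of the start sites are shown for the 3 barrier genes that fell in both tumour groups, Cldn5, Slco1c1 and Abcb1a (57.0% and 62.2% of all tested genes were called in EV and in MycT58A tumours), and for Mfsd2a, which passed in neither. WNT signalling acts on promoters through TCF/LEF factors. Each run is the 250 bases before the RefSeq start (GRCm38.p6), 5′ to 3′ on the strand of the gene, with matches to the searched motifs in capitals. Cldn5 lies at chr16:18776597-18776846 (plus strand), Slco1c1 at chr6:141524104-141524353 (plus), Abcb1a at chr5:8566841-8567090 (plus) and Mfsd2a at chr4:122961189-122961438 (minus).
Cldn5: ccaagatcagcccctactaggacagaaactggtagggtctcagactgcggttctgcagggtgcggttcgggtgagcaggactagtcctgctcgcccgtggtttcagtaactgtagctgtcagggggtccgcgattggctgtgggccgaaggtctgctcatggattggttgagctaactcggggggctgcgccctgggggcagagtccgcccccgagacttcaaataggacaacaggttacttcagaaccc
Slco1c1: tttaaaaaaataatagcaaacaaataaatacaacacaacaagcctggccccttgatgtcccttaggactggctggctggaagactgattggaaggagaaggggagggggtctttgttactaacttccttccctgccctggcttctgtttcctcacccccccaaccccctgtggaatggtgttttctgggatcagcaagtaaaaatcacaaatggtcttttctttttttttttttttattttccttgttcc
Abcb1a: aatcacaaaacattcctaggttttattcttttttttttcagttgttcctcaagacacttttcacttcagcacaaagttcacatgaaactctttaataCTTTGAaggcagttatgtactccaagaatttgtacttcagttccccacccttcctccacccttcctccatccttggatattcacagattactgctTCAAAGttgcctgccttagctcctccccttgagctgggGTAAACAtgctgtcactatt
Mfsd2a: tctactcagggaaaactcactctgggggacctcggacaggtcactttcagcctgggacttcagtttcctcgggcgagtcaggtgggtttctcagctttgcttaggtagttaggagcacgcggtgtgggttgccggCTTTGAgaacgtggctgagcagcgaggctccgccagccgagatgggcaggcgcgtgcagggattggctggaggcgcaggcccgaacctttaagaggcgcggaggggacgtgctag
Motifs were searched on both strands in windows of 300 bases, 250 before and 50 after each start, and 8 of the 10 members matched the RefSeq table with 11 start sites. The TCF/LEF core CTTTGA stood in windows of Abcb1a (1 match per strand) and Mfsd2a (1 match), against 16% of all 32851 windows. The SOX core AACAAT was in none of the members' windows, against 10.7% of all. The ETS core CCGGAA was in 1 window of Ocln, against 14.9% of all, and the forkhead core GTAAACA in the window of Abcb1a, against 3.65% of all. The RefSeq window shown for Abcb1a, at chr5:8566841-8567090, lies far upstream of the gene body that GENCODE vM21 gives, which starts at 8660077. All matches of Abcb1a come from that distant window. A match is a run of letters only, and its absence says nothing about binding.

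Total counts per library ran from 16631523 to 30410089. Levels are CPM, counts scaled to a common depth with TMM, and fold changes come from edgeR's quasi-likelihood fit to all 9 libraries, with p adjusted over the 15171 genes tested and a threshold of 0.05. Some libraries stand apart from their groups. Myc, which checks the labels, stood at 0.94 to 32.0 CPM in the controls, at 360, 19.9 and 762 CPM in EV replicates 1 to 3 and at 727 to 918 CPM in the MycT58A libraries, so the library labelled EV replicate 3 lay inside the MycT58A range. That library also held an epithelial marker sum of 365 CPM (Krt5 at 129 CPM), against 9.36 to 62.0 CPM in the other 8. Of the members, Plvap, Mfsd2a, Abcg2 and Tjp1 had a level there inside the MycT58A range, and the others had a level outside it. Myc was not called between the tumour groups (2.19-fold, edgeR adjusted p = 0.592). EV replicate 2 held the most vessel RNA: 20 pan-endothelial genes (Pecam1, Cdh5 and others, none of them a member) summed to 748 CPM there, to 173 and 273 CPM in the other EV libraries, to 152 to 265 CPM with MycT58A and to 352 to 376 CPM in the controls. Its pericyte sum of 2968 CPM was mostly Vtn, at 2241 CPM. Its choroid plexus marker sum was 2009 CPM, against 39.3 to 727 CPM in the other 8 libraries. In bulk RNA, fewer endothelial cells and less RNA per endothelial cell cannot be told apart.

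Plvap (chromosome 8, 71497765 to 71511752, mm10), the leaky-vessel gene, was not called in any comparison. Its level was 10.7, 20.8 and 5.88 CPM in the controls, 13.6, 86.1 and 10.6 CPM in the EV tumours and 8.42, 12.7 and 10.6 CPM in the MycT58A tumours. EV replicate 2, the vessel-rich library, stood alone, and the other 8 libraries overlapped across the groups. The EV mean of 36.8 ± 42.7 CPM (SD, n = 3) was 2.95-fold the control mean of 12.5 ± 7.63 CPM (log2 fold change 1.56 ± 0.80 SE, edgeR adjusted p = 0.125). Without EV replicate 2 the ratio was 1.02-fold with the EV tumours lower (edgeR adjusted p = 0.958), and without the library labelled EV replicate 3 it was 4.02-fold higher and passed (edgeR adjusted p = 0.048). Without control replicate 2 it was 4.44-fold (edgeR adjusted p = 0.0912). MycT58A tumours stood at 10.6 ± 2.14 CPM (SD, n = 3), with log2 fold changes of -0.24 ± 0.79 SE against control (edgeR adjusted p = 0.809) and -1.80 ± 0.81 SE against EV tumours (edgeR adjusted p = 0.169). The latter was -0.20 without EV replicate 2. Gtpbp3 overlaps Plvap on the other strand, but their transcripts shared no run of 50 bases.

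**Figure D1:**
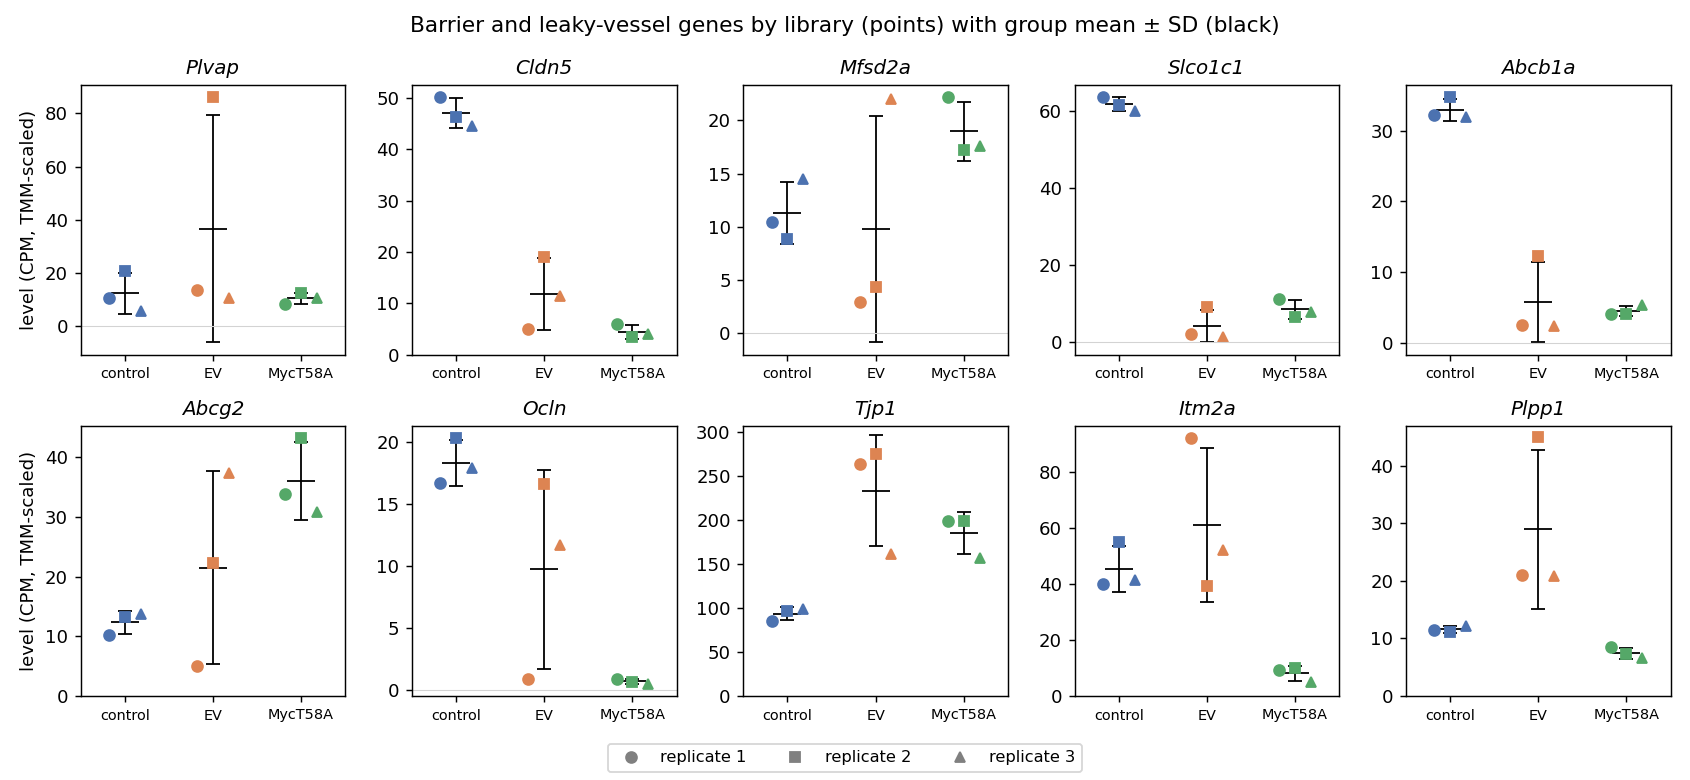
Level of each of the 10 genes in CPM (vertical axes, linear, own scale per gene) in the 3 control, 3 EV and 3 MycT58A libraries (points, marked by replicate), with the group mean ± SD in black. Cldn5, Slco1c1 and Abcb1a sit between 32.0 and 63.7 CPM in the control libraries and lower in every tumour library, whereas Plvap is high in EV replicate 2 alone (86.1 CPM).

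Among the tight junction genes, Cldn5 fell in both tumour groups, Ocln fell with MycT58A and Tjp1 rose in both. Cldn5 (chromosome 16, 18776847 to 18778262), the claudin that seals the brain endothelium against small molecules, stood at 50.2, 46.3 and 44.6 CPM in the controls. It stood at 5.03, 18.9 and 11.4 CPM in the EV tumours and at 6.04, 3.48 and 3.96 CPM in the MycT58A tumours. Every control library was above every tumour library, and EV replicate 2 was the highest of the tumours. Cldn5 fell 3.99-fold in EV tumours (log2 fold change -2.0 ± 0.45 SE, edgeR adjusted p = 0.00552) and 10.5-fold with MycT58A (-3.39 ± 0.48 SE, edgeR adjusted p = 0.000431). Both calls held under all 17 alternatives tried for each comparison. For MycT58A against EV tumours the log2 fold change was -1.39 and did not pass (edgeR adjusted p = 0.0812), although it passed with DESeq2 (adjusted p = 0.0178) and without EV replicate 1 (edgeR adjusted p = 0.0196).

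Ocln (chromosome 13, 100496507 to 100552718) encodes occludin, a tight junction protein that endothelial and epithelial cells share. Its level was 16.7, 20.3 and 17.9 CPM in the controls, 0.890, 16.6 and 11.7 CPM in the EV tumours and 0.899, 0.710 and 0.554 CPM in the MycT58A tumours. EV replicate 1 stood with the MycT58A libraries, and the library labelled EV replicate 3 stood under the controls. EV replicate 2 was nearly level with the lowest control (16.61 against 16.67 CPM). The EV difference did not pass the test (log2 fold change -0.91 ± 0.77 SE, edgeR adjusted p = 0.336). Ocln fell 25.1-fold in MycT58A tumours against control (-4.65 ± 0.91 SE, edgeR adjusted p = 0.00225, called under 17 of 17 alternatives). Against EV tumours it fell 13.4-fold (-3.74 ± 0.87 SE, edgeR adjusted p = 0.0394), a call that held under 8 of 17 alternatives. It was lost with scaling to the pan-endothelial genes (adjusted p = 0.0742, 5.84-fold), without any one control library (edgeR adjusted p = 0.0733 to 0.0746) or any one MycT58A library (edgeR adjusted p = 0.124 to 0.145), and the fold was 8.57 without EV replicate 2. The epithelial marker sum was highest in the library labelled EV replicate 3, and its part in the Ocln level there was not tested.

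Tjp1 (chromosome 7, 65296165 to 65527781) encodes ZO-1, a scaffold that many cell types besides endothelium express. It stood at 85.1, 96.7 and 98.9 CPM in the controls, at 264, 275 and 161 CPM in the EV tumours and at 200, 199 and 157 CPM in the MycT58A tumours. All 6 tumour libraries were above all 3 controls, and the tumour groups overlapped. Tjp1 rose 2.5-fold in EV tumours (log2 fold change 1.32 ± 0.23 SE, edgeR adjusted p = 0.0017) and 1.98-fold with MycT58A (0.98 ± 0.23 SE, edgeR adjusted p = 0.0059).

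Of the carriers, Slco1c1 fell in both tumour groups and Mfsd2a passed in no comparison. Slco1c1 (chromosome 6, 141524368 to 141570177), also called Oatp1c1, carries thyroxine into the brain and is found in capillaries and in astrocytes. Its control level was 63.7, 61.7 and 60.1 CPM, the narrowest control spread of the 10 genes relative to its mean. The EV tumours held 2.16, 9.05 and 1.25 CPM and the MycT58A tumours 11.2, 6.49 and 7.72 CPM. No tumour library came near the controls. It fell 14.8-fold in EV tumours (log2 fold change -3.89 ± 0.69 SE, edgeR adjusted p = 0.00169) and 7.29-fold with MycT58A (-2.87 ± 0.66 SE, edgeR adjusted p = 0.00506), each under all 17 alternatives. EV replicate 2 set the size of the first: without it the fall was 35.5-fold. The tumour groups did not differ with all libraries (1.03 ± 0.62 SE, edgeR adjusted p = 0.292), whereas without EV replicate 2 MycT58A tumours were 4.89-fold higher (edgeR adjusted p = 0.00546). Because Slco1c1 is also an astrocyte gene, the astrocyte markers stand beside it: 10 of 12 fell in EV tumours and 11 of 12 in MycT58A tumours, and their sum was 5339 to 6800 CPM in the controls and 284 to 980 CPM in the tumours. Their part in the Slco1c1 difference was not tested.

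Mfsd2a (chromosome 4, 122946850 to 122961188) carries lysophosphatidylcholine with docosahexaenoic acid and suppresses transcytosis in barrier endothelium. It stood at 10.5, 8.82 and 14.5 CPM in the controls, at 2.88, 4.33 and 22.1 CPM in the EV tumours and at 22.2, 17.2 and 17.6 CPM in the MycT58A tumours. EV replicates 1 and 2 were below every control, and the library labelled EV replicate 3 stood with the MycT58A libraries, which were all above the controls. With all libraries the EV difference was -0.21 ± 0.68 SE on the log2 scale (edgeR adjusted p = 0.802). Without that library Mfsd2a was 3.09-fold lower in EV tumours than in control (edgeR adjusted p = 0.00366) and 5.27-fold higher in MycT58A than in EV tumours (edgeR adjusted p = 0.00383). MycT58A against control gave 0.75 ± 0.67 SE (edgeR adjusted p = 0.354), which passed with only those 2 groups in the fit (adjusted p = 0.0127) or without the library labelled EV replicate 3 (edgeR adjusted p = 0.0336).

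Of the efflux pumps, Abcb1a fell in both tumour groups and Abcg2 rose with MycT58A. Abcb1a (chromosome 5, 8660077 to 8748575), the P-glycoprotein gene of mouse brain capillaries, stood at 32.2, 34.7 and 32.0 CPM in the controls, at 2.5, 12.3 and 2.38 CPM in the EV tumours and at 4.07, 4.08 and 5.29 CPM in the MycT58A tumours. EV replicate 2 was again the highest tumour library, and none reached the controls. The fall was 5.76-fold in EV tumours (log2 fold change -2.52 ± 0.62 SE, edgeR adjusted p = 0.00801; 13.4-fold without EV replicate 2) and 7.36-fold with MycT58A (-2.88 ± 0.62 SE, edgeR adjusted p = 0.00385). Both held under 17 of 17 alternatives. MycT58A and EV tumours did not differ with all libraries (-0.35 ± 0.59 SE, edgeR adjusted p = 0.704), but without EV replicate 2 MycT58A tumours were 1.83-fold higher (edgeR adjusted p = 0.0314).

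Its neighbour Abcb1b encodes the other mouse P-glycoprotein, which is known from tissues outside the brain capillaries. Abcb1b stood at 1.19, 1.24 and 1.54 CPM in the controls, at 2.29, 2.21 and 2.49 CPM in the EV tumours and at 13.9, 17.7 and 14.5 CPM in the MycT58A tumours. The 3 groups did not overlap. It rose 11.6-fold in MycT58A tumours against control (edgeR adjusted p = 4.35e-05, 17 of 17 alternatives) and 6.57-fold against EV tumours (edgeR adjusted p = 0.00481, 16 of 17, with 0.052 for the fit of those 2 groups only). In EV tumours it also passed (edgeR adjusted p = 0.0303), but under 9 of 17 alternatives, ending without control replicate 1 or 2 or any one MycT58A library (edgeR adjusted p = 0.0541 to 0.102). Abcb1b made up 3.86% ± 0.635 of the summed CPM of both genes in the controls, 38.1% ± 19.9 in EV tumours and 77.3% ± 3.98 in MycT58A tumours (SD, n = 3). That sum was 34.3 ± 1.46, 8.05 ± 5.57 and 19.8 ± 1.92 CPM, and every tumour library was below every control. Of the 50-base windows of the Abcb1a transcript, 15.5% are also in Abcb1b, with a longest shared run of 338 bases, and reads from these may have been counted on either gene.

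Abcg2 (chromosome 6, 58584523 to 58695676) encodes BCRP, a pump of barrier endothelium that stem-like cells of several tissues also express. Its level was 10.1, 13.2 and 13.8 CPM in the controls, 5.0, 22.3 and 37.3 CPM in the EV tumours and 33.9, 43.3 and 30.9 CPM in the MycT58A tumours. All MycT58A libraries were above all controls, while the EV libraries ran from below the controls into the MycT58A range, which the library labelled EV replicate 3 reached. Abcg2 rose 2.92-fold in MycT58A tumours (log2 fold change 1.54 ± 0.58 SE, edgeR adjusted p = 0.0455). The call ended under 8 of 17 alternatives, among them RLE scaling (adjusted p = 0.0541), library size alone (adjusted p = 0.0637) and the removal of any one control or MycT58A library (adjusted p = 0.072 to 0.128). In EV tumours the log2 fold change of 0.80 ± 0.58 SE did not pass (edgeR adjusted p = 0.26), although it did without EV replicate 1 (1.27, edgeR adjusted p = 0.00791). Without the library labelled EV replicate 3 it was 0.15 (1.11-fold, edgeR adjusted p = 0.825).

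Itm2a and Plpp1, membrane proteins enriched in brain endothelium, had levels that did not overlap between the tumour groups. Itm2a (chromosome X, 107397099 to 107403376) encodes a small integral membrane protein. It stood at 40.1, 55 and 41.3 CPM in the controls, at 92.2, 39.3 and 52.3 CPM in the EV tumours and at 9.43, 9.83 and 4.82 CPM in the MycT58A tumours. The MycT58A libraries were below all 6 others, and the EV libraries overlapped the controls. Itm2a fell 5.66-fold in MycT58A tumours against control (log2 fold change -2.50 ± 0.40 SE, edgeR adjusted p = 0.000784, 17 of 17 alternatives) and 7.63-fold against EV tumours (-2.93 ± 0.40 SE, edgeR adjusted p = 0.0104, 12 of 17). The latter call ended without any one MycT58A library (edgeR adjusted p = 0.0526 to 0.0607) and with scaling to the pan-endothelial genes (adjusted p = 0.059). Among the EV tumours Itm2a did not follow vessel RNA. It was highest in EV replicate 1 (pan-endothelial sum 173 CPM) and lowest in EV replicate 2 (748 CPM). Relative to the pan-endothelial genes its libraries overlapped between the tumour groups. In EV tumours its log2 fold change was 0.43 (edgeR adjusted p = 0.347).

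Plpp1 (chromosome 13, 112800792 to 112867894), a phosphatase that degrades lysophosphatidic acid and related lipids, was 11.4, 11.1 and 12.2 CPM in the controls. It was 21.1, 45.0 and 20.9 CPM in the EV tumours and 8.42, 7.20 and 6.61 CPM in the MycT58A tumours. The groups did not overlap, with EV highest and MycT58A lowest. Plpp1 rose 2.5-fold in EV tumours (log2 fold change 1.32 ± 0.33 SE, edgeR adjusted p = 0.00902). It was 3.91-fold lower in MycT58A than in EV tumours (-1.97 ± 0.34 SE, edgeR adjusted p = 0.0175, 12 of 17 alternatives), a call that ended without any one MycT58A library (edgeR adjusted p = 0.0779 to 0.0939) and with scaling to the pan-endothelial genes (adjusted p = 0.309, 2.0-fold). MycT58A against control gave -0.64 (edgeR adjusted p = 0.118), which passed with only those 2 groups in the fit (adjusted p = 0.00795) and without EV replicate 2 (edgeR adjusted p = 0.0129). Mtrex overlaps Plpp1 on the other strand and shares 26.0% of its 50-base windows, so reads of the shared end may belong to either gene.

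Counted together, 5 of the 10 genes passed between EV tumours and control, 2 higher (Tjp1, Plpp1) and 3 lower (Cldn5, Slco1c1, Abcb1a), where 57.0% of all tested genes were called (30.7% higher and 26.3% lower). Between MycT58A tumours and control 7 of 10 passed, 2 higher (Tjp1, Abcg2) and 5 lower (Cldn5, Ocln, Slco1c1, Abcb1a, Itm2a), against 62.2% of all genes (31.2% higher and 31.0% lower). Both shares are close to the background. These comparisons share the control libraries. MycT58A against EV tumours gave 3 of 10, all lower with MycT58A (Ocln, Itm2a, Plpp1), against 8.30% of all genes (3.28% higher and 5.02% lower). None of the 10 was higher with MycT58A by edgeR, DESeq2 or limma-voom. The 4 of 10 with an unadjusted edgeR p under 0.05 were all lower (Cldn5, Ocln, Itm2a, Plpp1). DESeq2 called 4 of 10, against 22.7% of all genes, and limma-voom 2 of 10, against 9.97%. By library values alone, the groups did not overlap for 6 members in EV tumours against control (2 higher and 4 lower, against 30.3% and 32.2% of all genes, 62.5% together). Of the 4 lower, Ocln was nearly tied (16.61 CPM in EV replicate 2 against 16.67 CPM in control replicate 1). The groups did not overlap for 9 members in MycT58A tumours against control (3 higher and 6 lower, against 41.0% and 41.5%, 82.5% together) and for 2, both lower, in MycT58A against EV tumours (against 18.2% higher and 13.6% lower, 31.8% together). The median log2 fold change of the 10 was 0.11, -1.57 and -0.87 in the 3 comparisons, against 0.14, -0.02 and -0.04 over all genes tested.

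**Figure D2:**
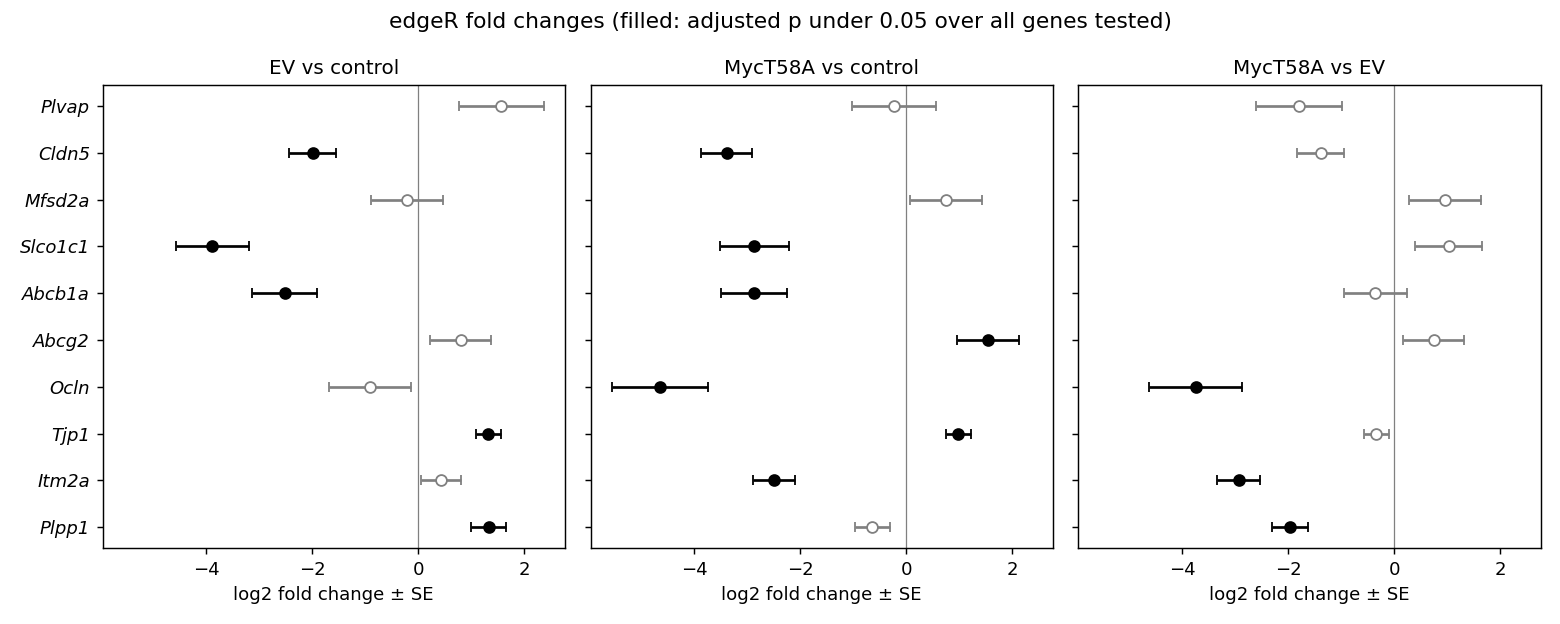
edgeR log2 fold change ± SE of the 10 genes (horizontal axes) for EV tumours against control, MycT58A tumours against control and MycT58A against EV tumours, with filled points for an adjusted p under 0.05. Cldn5, Slco1c1 and Abcb1a lie left of 0 in both comparisons with control, and Ocln, Itm2a and Plpp1 are the filled points between the tumour groups.

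Per kilobase of exon, Cldn5 led the 10 genes in the controls and Tjp1 in the MycT58A tumours. In the EV tumours the spreads set no gene apart at the top. In the controls the order was Cldn5 (33.2 ± 2.03 CPM per kb, SD, n = 3), Itm2a (26.1 ± 4.76), Tjp1 (12 ± 0.949) and Slco1c1 (11.9 ± 0.351), then Plpp1 (6.61 ± 0.314), Plvap (6.27 ± 3.84), Abcb1a (6.02 ± 0.28), Mfsd2a (5.01 ± 1.30), Ocln (4.33 ± 0.435) and Abcg2 (1.52 ± 0.239). Neighbours from Tjp1 to Slco1c1 and from Plpp1 to Ocln lay within their spread. In the MycT58A tumours Tjp1 led at 23.7 ± 3.08 CPM per kb, followed by Mfsd2a (8.44 ± 1.24), Plvap (5.32 ± 1.08), Itm2a (4.60 ± 1.60), Abcg2 (4.42 ± 0.798), Plpp1 (4.23 ± 0.528) and Cldn5 (3.17 ± 0.963). Neighbours from Plvap to Cldn5 lay within their spread. Slco1c1 (1.63 ± 0.474), Abcb1a (0.817 ± 0.128) and Ocln (0.171 ± 0.041) closed the order. In the EV tumours the order by mean began with Itm2a (35.1 ± 15.8 CPM per kb), Tjp1 (29.9 ± 8.04), Plvap (18.5 ± 21.5) and Plpp1 (16.6 ± 7.92). Cldn5 (8.33 ± 4.92), Mfsd2a (4.34 ± 4.75), Abcg2 (2.64 ± 1.98), Ocln (2.31 ± 1.91), Abcb1a (1.04 ± 1.04) and Slco1c1 (0.80 ± 0.822) followed. Neighbours along the whole order, Plpp1 and Cldn5 among them, lay within their spread.

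The ratio of Plvap to Cldn5 was taken within each library, so it does not depend on library scaling beyond the added 0.5 CPM. The log2 ratio was -2.18, -1.14 and -2.82 in the controls, 1.35, 2.15 and -0.10 in the EV tumours and 0.45, 1.73 and 1.32 in the MycT58A tumours. All 6 tumour libraries stood above all 3 controls, and the tumour groups overlapped. The group means were -2.05 ± 0.85, 1.14 ± 1.14 and 1.16 ± 0.66 (SD, n = 3), a ratio 9.08-fold higher in EV and 9.26-fold higher in MycT58A tumours than in control. Each exact two-sided permutation p was 0.1, the smallest that 3 against 3 libraries allow. EV and MycT58A tumours differed by 0.03 on the log2 scale (exact permutation p = 1). Plvap itself passed in neither comparison with control, whereas Cldn5 fell in both, so the higher ratio does not show more leaky-vessel RNA. A gene with an unchanged level would also separate the groups when set over Cldn5. The share of all genes that do so was not counted.

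**Figure D3:**
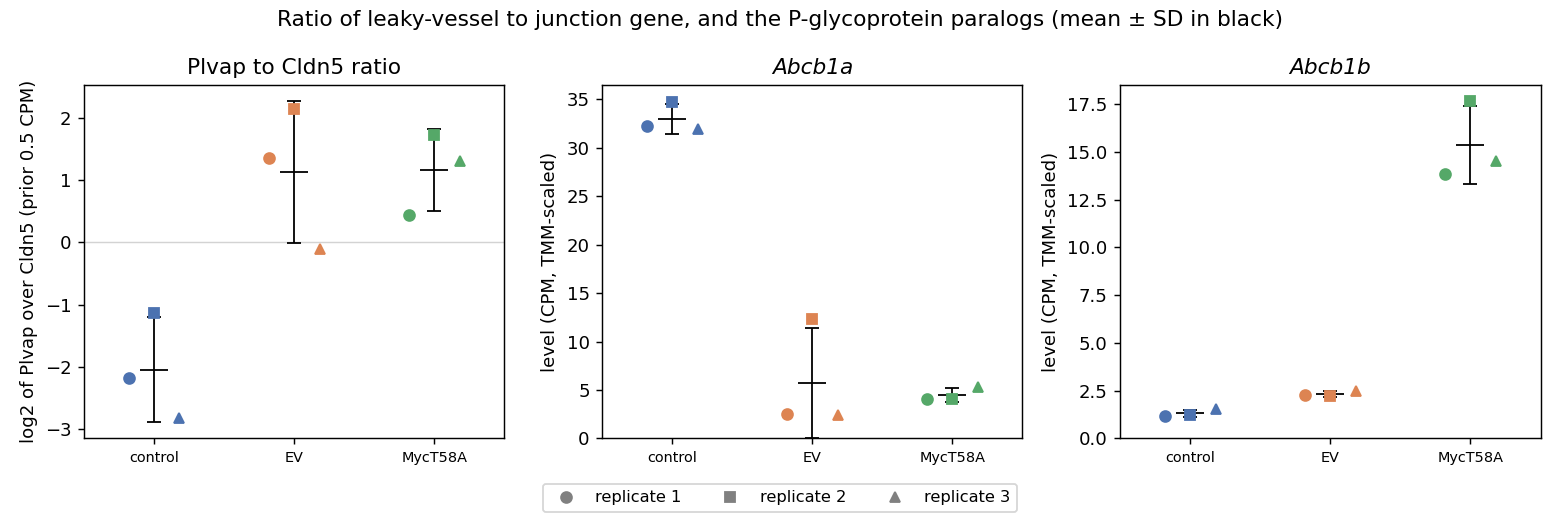
By library (points, marked by replicate) in the 3 groups: the log2 ratio of Plvap to Cldn5 and the levels of Abcb1a and Abcb1b. Levels are in CPM, and the group mean ± SD is in black. The ratio lies between -2.82 and -1.14 in the controls and between -0.10 and 2.15 in the tumours. Abcb1b lies between 1.19 and 1.54 CPM in the controls and between 13.9 and 17.7 CPM in the MycT58A tumours.

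To set the members against the amount of vessel RNA, each log2 level was taken relative to the mean log2 level of the 20 pan-endothelial genes of the same library. That mean was 3.63 to 3.74 in the controls, 2.90, 4.94 and 3.37 in EV replicates 1 to 3 and 2.59 to 3.26 with MycT58A. Of the 20 genes, 2 rose and 0 fell in EV tumours, 1 rose and 3 fell in MycT58A tumours, and 1 was lower with MycT58A than with EV, with medians of 0.34, -0.81 and -1.13. In EV tumours the 2 that rose were the only ones of the 20 with an unadjusted edgeR p under 0.05. DESeq2 called 0 lower there and limma-voom 3. Cd93, a receptor of sprouting endothelium, rose 4.22-fold in EV tumours (edgeR adjusted p = 0.00401, 17 of 17 alternatives). Tek, the angiopoietin receptor, fell 11.7-fold and Flt1, a VEGF receptor, 5.0-fold with MycT58A (edgeR adjusted p = 0.00283 and 0.00425), so the index is not made of genes that moved as one.

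On this relative scale Cldn5, Slco1c1, Abcb1a and Ocln were below control in every tumour library of both groups. For Cldn5 the relative level was 1.93, 1.86 and 1.86 in the controls, -0.43, -0.66 and 0.20 in the EV tumours and -0.17, -1.27 and -0.43 in the MycT58A tumours. The EV replicate 2 library, high in vessel RNA, was here no longer the highest tumour library. The differences from control in EV and MycT58A tumours were -2.18 and -2.51 for Cldn5, -4.19 and -2.06 for Slco1c1, -2.86 and -1.99 for Abcb1a and -1.55 and -3.18 for Ocln. Each had an exact permutation p of 0.1, the smallest possible. Relative Plvap was -0.25, 0.73 and -0.96 in the controls, 0.92, 1.49 and 0.10 in the EV tumours and 0.27, 0.46 and 0.88 in the MycT58A tumours, so it overlapped in both comparisons (differences of 1.0 and 0.70). Tjp1 was above control in both groups (1.23 and 1.75), Plpp1 in EV tumours (1.14), and Mfsd2a and Abcg2 in MycT58A tumours (1.52 and 2.28), where Itm2a was below control (-1.71).

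In all, 2 members were higher and 4 lower without overlap in EV tumours, against 14.5% and 25.7% of all tested genes treated the same way (40.2% together). In MycT58A tumours 3 were higher and 5 lower, against 54.0% and 23.9% (77.9% together). For MycT58A against EV tumours, Slco1c1 (2.13), Abcb1a (0.87) and Abcg2 (1.93) were higher with MycT58A and Plpp1 (-0.98) lower without overlap, against 23.4% and 1.83% of all genes (25.3% together). Relative Slco1c1 stood at -1.49, -1.69 and -2.57 in the EV tumours and at 0.67, -0.46 and 0.45 in the MycT58A tumours. In an edgeR fit scaled to the pan-endothelial genes, added after the data were seen, Slco1c1 was 5.21-fold higher in MycT58A than in EV tumours (adjusted p = 0.0408). With that scaling the calls of Tjp1 and Plpp1 in EV tumours ended (adjusted p = 0.0662 and 0.102), while those of Cldn5, Slco1c1 and Abcb1a held (adjusted p = 0.00723, 4.89e-05 and 0.000831). In that fit 3 of 10 members passed in EV tumours and 1 (Slco1c1, higher with MycT58A) between the tumour groups, where Ocln, Itm2a and Plpp1 no longer passed, against 37.4% and 2.84% of all genes.

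**Figure D4:**
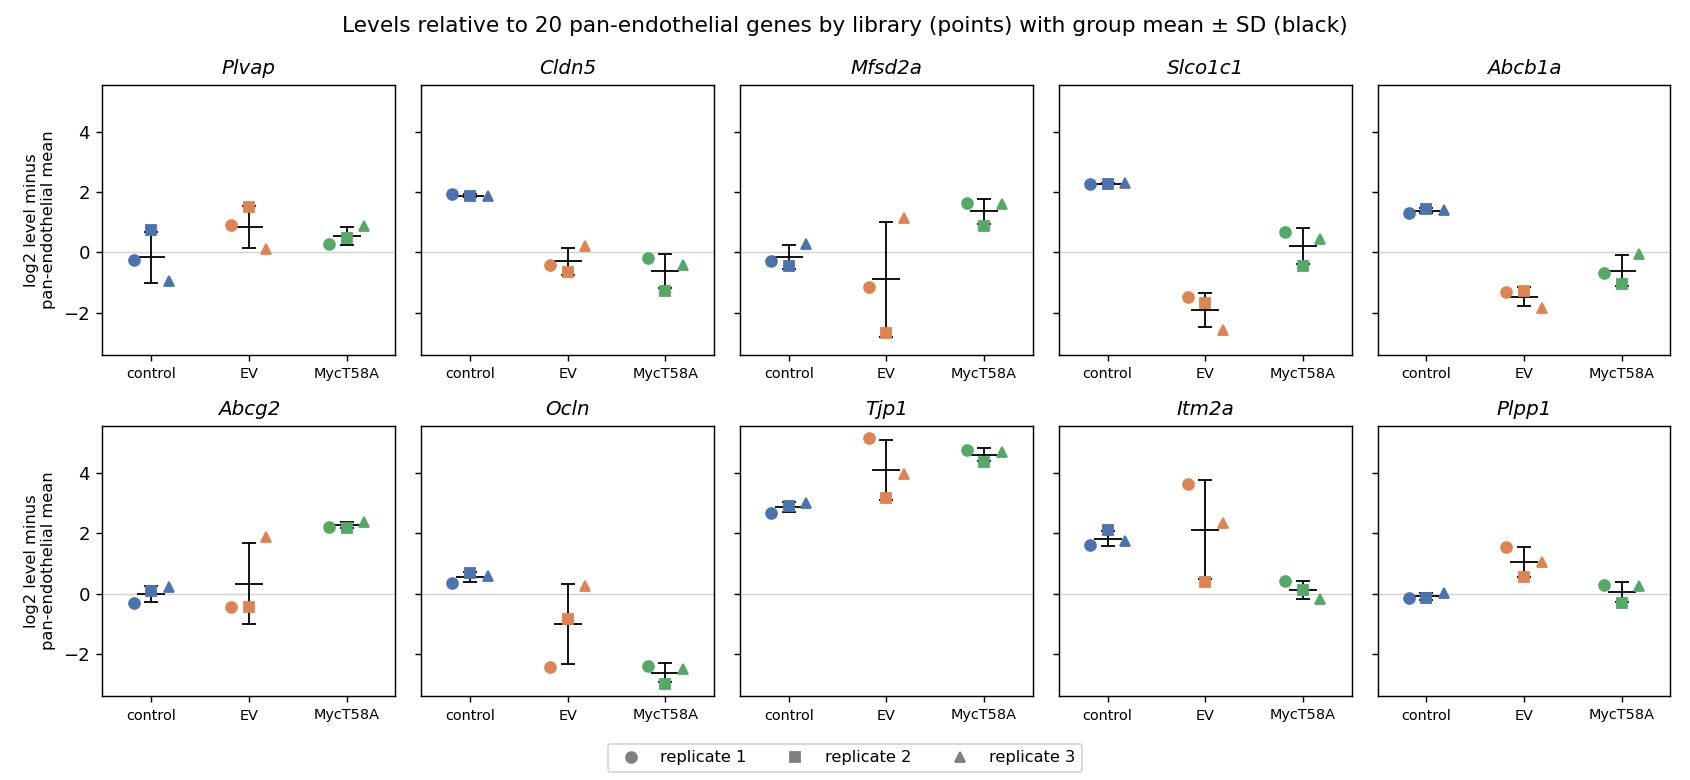
Log2 level of each of the 10 genes minus the mean log2 level of 20 pan-endothelial genes of the same library (vertical axes, shared scale), by group, with points marked by replicate and the group mean ± SD in black. Cldn5, Slco1c1, Abcb1a and Ocln stay below every control library in all 6 tumour libraries, and Plvap overlaps between the groups.

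For all the lists that follow, a share of 57.0% of tested genes called in EV tumours, 62.2% in MycT58A tumours and 8.30% between the tumour groups is the background. In EV tumours the shares of the transport, WNT signalling, WNT antagonist and fenestrated vessel lists called in either direction lay near that background. Those totals alone say nothing particular of the lists. By direction the background is 30.7% higher and 26.3% lower in EV tumours and 31.2% and 31.0% in MycT58A tumours. Between the tumour groups it is 3.28% and 5.02%. The WNT signalling, WNT antagonist and fenestrated vessel lists were called mainly higher in EV tumours, a split that was not tested. The wider junction list was called in both directions. Of 18 genes 7 rose and 6 fell in EV tumours, and 7 rose and 6 fell in MycT58A tumours, with median log2 fold changes of 1.13 and -1.11 (over all tested genes 0.14 and -0.02, and -0.04 between the tumour groups, for this and the lists that follow). Pard3, a polarity protein, rose 4.16-fold and 5.28-fold (edgeR adjusted p = 4.90e-05 and 2.74e-05), a member of the list that is not specific to vessels. Cldn10, a claudin of epithelia and of brain parenchyma, fell 53.6-fold and 44.4-fold, from 38.4 to 40.2 CPM in the controls to 0.479 to 1.26 CPM in the tumours. Marveld2 (tricellulin), which seals the corners where 3 cells meet, fell 37.9-fold and 21.2-fold. Ildr2, among the 7 that rose in EV tumours, stood at 29.6, 430 and 11.4 CPM in EV replicates 1 to 3. It overlapped the controls (10.7 to 20.1 CPM), while the other genes that rose there did not. The list sum was 580, 1261 and 651 CPM in EV replicates 1 to 3 and 647 to 671 CPM in the controls. Between the tumour groups 1 rose and 1 fell with MycT58A (median 0.22). The latter was F11r (JAM-A), at 15.3 to 30.3 CPM in EV and 3.28 to 4.35 CPM in MycT58A tumours (5.68-fold lower, edgeR adjusted p = 0.00859, 13 of 17 alternatives; 0.0524 and 0.0607 without MycT58A replicate 2 or 3).

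Of 22 transport genes 7 rose and 6 fell in EV tumours (median -0.07), 10 rose and 7 fell in MycT58A tumours (median -0.04), and 3 were higher and 2 lower with MycT58A than with EV (median 0.11). Slc7a5 (LAT1), the large neutral amino acid carrier of capillaries and of many growing cells, rose 7.58-fold in MycT58A tumours (edgeR adjusted p = 0.000265), from 64.2 to 71.6 CPM to 371 to 728 CPM. Slc19a3, a thiamine carrier, fell 10.1-fold there (edgeR adjusted p = 0.000706). Slco2b1 was 5.75-fold lower with MycT58A than with EV (edgeR adjusted p = 0.0238, 9 of 17 alternatives, lost without any one control or MycT58A library).

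Of 21 genes of the WNT signalling that builds the barrier 11 rose and 2 fell in EV tumours (median 2.0), and 8 rose and 4 fell in MycT58A tumours (median 0.50). Axin2, a general WNT target, rose 18.8-fold and 19.0-fold (edgeR adjusted p = 1.50e-05 and 1.81e-05), and Apcdd1 47.4-fold and 23.3-fold. Both are general targets of beta-catenin, which the implanted cells carry in stabilised form. The list sum was 307 to 370 CPM in the controls, 2334 to 4935 CPM in EV tumours and 1863 to 2440 CPM in MycT58A tumours. Whether this RNA came from tumour cells or from vessels was not tested, so the counts do not show more signalling in vessels. Lsr stands on the junction list as well. The ligand Ndp (norrin) fell 15.8-fold and 14.7-fold, from 15.3 to 17.3 CPM in the controls to 0.274 to 2.46 CPM in the tumours. The ligand Wnt7a fell 12.3-fold in EV tumours (edgeR adjusted p = 0.0218, 14 of 17 alternatives; 0.0511 to 0.0654 without control replicate 1 or 2 or EV replicate 1) and 120-fold with MycT58A (edgeR adjusted p = 0.00201). The other ligand on the list, Wnt7b, named here outside the rule with its values known, did not pass in EV tumours (log2 fold change 0.09, edgeR adjusted p = 0.953). It stood at 10.1 to 14.8 CPM in the controls, at 1.10, 0.722 and 39.3 CPM in EV replicates 1 and 2 and the library labelled EV replicate 3, and at 0.171 to 0.923 CPM with MycT58A. Between the tumour groups 0 rose and 0 fell (median -0.64): 7 had an unadjusted edgeR p under 0.05, DESeq2 called 1 higher and 5 lower, and limma-voom 1 lower.

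Of 12 WNT antagonists 7 rose and 0 fell with EV, and 8 rose and 1 fell with MycT58A (medians 4.14 and 4.21). Notum, which inactivates WNT proteins, stood at 1.23 to 2.08 CPM in the controls, 176 to 222 CPM in the EV tumours and 157 to 288 CPM in the MycT58A tumours (131-fold and 140-fold). Wif1, a WNT-binding protein, rose 205-fold in MycT58A tumours, to 1610 to 2629 CPM. Apcdd1 stands on this list as well and is counted among the genes that rose on both lists. The 7 that rose with EV were the only ones of the 12 with an unadjusted edgeR p under 0.05. DESeq2 and limma-voom also called 0 lower. Between the tumour groups 0 passed (median -0.66), with 4 at an unadjusted edgeR p under 0.05, 1 higher and 2 lower by DESeq2 and 1 higher and 2 lower by limma-voom.

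Of 23 tested genes of fenestrated and activated vessels 11 rose and 1 fell in EV tumours (median 1.71), 9 rose and 2 fell in MycT58A tumours (median 1.32), and 0 were higher and 2 lower with MycT58A than with EV (median -0.95). In the last comparison 9 of the 23 had an unadjusted edgeR p under 0.05, counted in either direction, and DESeq2 and limma-voom also called 0 higher. Nid2, a basement membrane protein, rose 123-fold and 38.4-fold, from 2.61 to 2.97 CPM in the controls to 204 to 438 CPM and 84.0 to 131 CPM. Scarb1, the HDL receptor, rose 5.22-fold and 5.72-fold. Ackr1, a chemokine receptor of venules that cerebellar Purkinje cells also express, fell 111-fold and 81.0-fold. Gpihbp1, a capillary protein normally missing from brain, falls outside the rule for named genes and was picked with its values known. It had no count in any control library, was at least 32.7-fold higher in EV and at least 61.2-fold higher in MycT58A tumours against a floor of 3 counts over the controls, and reached 5.25 CPM at most.

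Markers of other cells moved with the groups, and apart from the values given here their part in the members' differences was not tested. Of 12 pericyte markers 3 rose in EV tumours (median 1.37), 2 rose and 2 fell in MycT58A tumours (median -0.48), and 1 was lower with MycT58A than with EV (median -1.07). Anpep rose 21.0-fold and 19.9-fold, and Pdgfrb, the pericyte receptor, rose 5.71-fold in EV tumours. Of 9 tested fibroblast markers 7 rose with EV (median 4.31), 5 rose and 1 fell with MycT58A (median 2.88), and 1 was lower with MycT58A than with EV (median -1.57). Their sum was 130 to 223 CPM in the controls, 3327 to 12401 CPM in the EV tumours and 1909 to 2236 CPM with MycT58A.

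Granule neuron markers fell, 9 of 10 in each tumour group (medians -7.68 and -7.19), and 1 was higher with MycT58A than with EV (median 0.48), their sum being 7249 to 10401 CPM in the controls and 23.0 to 147 CPM in the tumours. Astrocyte medians were -3.92 and -4.84, and between the tumour groups 1 astrocyte marker was higher and 1 lower with MycT58A (median -0.78). Microglia and macrophage markers rose in EV tumours (7 of 12, median 1.44), while 1 rose and 3 fell with MycT58A (median -0.53), and 3 were lower with MycT58A than with EV (median -2.03). Choroid plexus markers, 10 tested, had 0 calls with EV (1 at an unadjusted edgeR p under 0.05, 1 lower by DESeq2 and 1 lower by limma-voom; median 2.08) and 1 higher with MycT58A against either group (medians 0.09 and -0.55). The sum of these markers was 2009 CPM in EV replicate 2, 374 CPM in EV replicate 1 and 39.3 CPM in the library labelled EV replicate 3. It was 173 to 220 CPM in the controls and 291 to 727 CPM with MycT58A. Ttr, which defines that tissue, was 40.8 CPM in EV replicate 2 and 241 CPM in MycT58A replicate 3. It was at most 14.6 CPM in the other 7 libraries. Of 6 tested epithelial markers 4 rose with EV (median 4.88), 0 passed with MycT58A (0 at an unadjusted edgeR p under 0.05, 0 by DESeq2, 1 higher by limma-voom; median 0.03), and 2 were lower with MycT58A than with EV (median -3.92). The sum of all 10 epithelial markers was 17.8 and 25.4 CPM in EV replicates 1 and 2 and 365 CPM in the library labelled EV replicate 3. It was 9.36 to 20.7 CPM in the controls and 43.2 to 62.0 CPM with MycT58A. EV replicates 1 and 2 were thus below every MycT58A library. The 3 tested T cell genes gave 2 higher and 1 lower with EV, 1 higher and 1 lower with MycT58A and 0 between the tumour groups (1 at an unadjusted edgeR p under 0.05, 0 by DESeq2 and limma-voom), with medians of 2.44, 1.53 and -1.52. The lower one was Thy1, a neuronal gene as well, and Cd3e, which defines T cells, had counts in EV replicate 2 alone, at 0.212 CPM. Of the red blood cell genes 4 of 6 had no count in any group, and the 1 tested, Alas2, passed in no comparison by edgeR (0 at an unadjusted p under 0.05; DESeq2 called it lower with MycT58A and limma-voom lower with EV).

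By the Pearson r of log2 CPM over the 9 libraries, the genes most like Plvap among 11554 candidates were Tmem18 (r 0.95), Lifr (0.94), Tspan4 (0.93), Plbd2 (0.93) and Pef1 (0.92). Each of them was highest in EV replicate 2, the library that also holds the Plvap peak. The genes most like Cldn5 were Kcna6 (r 0.998), Wsb2 (0.99), Scrn1 (0.99), Rab7 (0.99) and Adgrg1 (0.99). Kcna6, a potassium channel of neurons and glia, stood at 181, 158 and 154 CPM in the controls, 1.16, 21.8 and 8.96 CPM in the EV tumours and 2.73, 0.461 and 1.15 CPM in the MycT58A tumours. The points share the gap between cerebellum and tumour, so these values describe a likeness of 9 libraries.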

How the data were processed

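Counts per gene symbol were analysed in 9 bulk RNA-seq libraries, 3 of control cerebellum, 3 of EV tumours and 3 of MycT58A tumours, grouped by the labels. The authors deposited whole-number counts, made on mm10 with bcl2fastq, TopHat and edgeR according to the submitters' processing notes. Not given in the sources used here are tool versions, the read counter, the annotation and the use of strand, so overlapping and antisense genes could not be told apart. Per the labels' protocols, RNA came from microdissected frozen tissue with a NucleoSpin kit.

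The filterByExpr rule (minimum count 10, minimum total 15) left 15171 of 24444 genes for edgeR 4.0.16 in R 4.3.3. No count was found for 4711 genes. The quasi-likelihood fit took all 9 libraries with TMM scaling and 1 mean per group (6 residual degrees of freedom, 1 shared dispersion per gene), with Benjamini-Hochberg adjustment over all tested genes and a threshold of 0.05. It was also run on simulated counts, and its recovery at the spread of these libraries is not reported here. Alternatives were RLE scaling, total library size, no filter, a filter of 1 CPM, only the 2 groups compared, DESeq2 1.42.0, limma-voom (limma 3.58.1) and each library left out. Scaling to the pan-endothelial genes was added after the data were seen.

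Ratios and relative levels used log2(CPM + 0.5) and exact two-sided permutation tests over libraries. Positions and exon lengths are from GENCODE vM21 (mm10) and promoters from RefSeq (GRCm38.p6). Named genes are all members, from each of the 15 lists and each comparison at most the 2 genes of smallest adjusted p in each direction (1 where none passed; not all are printed, and 1 is not reported here), and the 5 genes most like Plvap and Cldn5. Of 217 list symbols 215 were found, 2 of them by a synonym. The members, lists and tests were chosen with earlier results of these data known. Replicate libraries are biological per the series' design text. Whether tumours came from separate cultures of cells is not stated, so p-values cover only how far these libraries spread. Floors cover counting error only.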

Additional observations from a re-analysis of the deposited data

Results flagged for a closer look

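The effects of EV and of MycT58A tumours against the shared control differed from each other, by the edgeR test of the difference itself (MycT58A against EV tumours), for 3 of the 10 genes. The difference was -3.74 on the log2 scale for Ocln (edgeR adjusted p = 0.0394), -2.93 for Itm2a (edgeR adjusted p = 0.0104) and -1.97 for Plpp1 (edgeR adjusted p = 0.0175). Ocln was lower in all 3 MycT58A libraries than in 2 of the 3 EV libraries, whereas Itm2a and Plpp1 were lower in all 3 MycT58A libraries than in any EV library. None of the 3 passed with only the 2 tumour groups in the fit (edgeR adjusted p = 0.122 for Ocln, 0.0632 for Itm2a and 0.072 for Plpp1). None passed with scaling to the pan-endothelial genes either (edgeR adjusted p = 0.0742, 0.059 and 0.309), and relative to those genes the libraries of both tumour groups overlapped for Ocln and Itm2a.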

How the results depend on the processing

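Over 17 alternatives in each comparison, the fold changes of the 10 genes kept their direction and their side of the threshold in 457 values, 29 calls were lost, 12 were gained and 12 values changed sign. The called differences of Cldn5, Slco1c1 and Abcb1a from control in both tumour groups, and of Ocln, Itm2a and Tjp1 in MycT58A tumours, held in every alternative run. The sign changes were of differences that had not passed. For Mfsd2a in EV tumours against control the log2 fold change became 0.0179 with scaling to the pan-endothelial genes and ran from -1.63 to 0.23 when single libraries were left out. For Plvap the ranges without single libraries were -0.0310 to 2.15 (EV against control), -0.55 to 0.37 (MycT58A against control) and -2.22 to -0.20 (MycT58A against EV). With scaling to the pan-endothelial genes MycT58A against control became 0.64 for Plvap and 0.23 for Plpp1, and MycT58A against EV became 0.36 for Tjp1 and 1.03 for Abcb1a. Abcb1a was also 0.0708 with limma-voom and ran from -0.71 to 0.87 without single libraries.

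Of the 10 genes, 3 in place of 5 were called between EV tumours and control with scaling to the pan-endothelial genes. Between the tumour groups 0 in place of 3 were called with only those 2 groups in the edgeR fit (where 4 had an unadjusted p under 0.05; with all libraries 4 passed by DESeq2 and 2 by limma-voom), 1 with scaling to the pan-endothelial genes (Slco1c1, higher, with Ocln, Itm2a and Plpp1 all lost), and 0 to 5 without single libraries: 5 without EV replicate 2, and 0 without any one MycT58A library (4 at an unadjusted edgeR p under 0.05 each time). The Plvap to Cldn5 log2 ratio between the tumour groups was -0.0164 with 1 CPM added and ran from -0.59 to 0.54 without single libraries, around 0.0288. Against control it ran from 2.67 to 3.80 (EV) and from 2.82 to 3.67 (MycT58A). Relative to the pan-endothelial genes, and without single libraries, EV against control ran from -1.75 to 0.15 for Mfsd2a, from -0.43 to 0.73 for Abcg2 and from -0.46 to 1.17 for Itm2a, and MycT58A against EV from -0.67 to 0.0283 for Plvap.

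The count over all genes between the tumour groups was 1259 (39.6% of them higher), but 3446 with DESeq2, 1513 with limma-voom (58.4% higher), 861 without a filter, 431 with pan-endothelial scaling (71.2% higher), 34 with only those 2 groups, 36 to 3977 without single libraries (2565 without EV replicate 2, 3977 without the library labelled EV replicate 3, 311 to 363 without a control, 36 to 70 without a MycT58A library) and 1239 with library size alone (24.3% higher). Against control it was 8643 for EV (5681 with pan-endothelial scaling) and 9438 for MycT58A (66.8% higher with that scaling, 50.1% otherwise). Pan-endothelial scaling moved the median log2 fold change of all genes to 0.31, 0.86 and 0.68 in the 3 comparisons, and library size alone to -0.17 between the tumour groups. The cause of these changes was not tested, apart from the fewer libraries that some fits hold. No paired analysis was possible because the labels give no replicate numbers and the libraries were numbered in accession order. At these depths the lowest member value, Ocln at 0.554 CPM, rests on 13 counts.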
